A study of Homo sapiens with 56 samples.

Results

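The transcriptional response to BTZ was measured in MINO-P and MINO-VR, sublines of the mantle cell lymphoma cell line MINO. Mantle cell lymphoma is a B-cell cancer, and BTZ is taken here as bortezomib, the proteasome inhibitor ("PI") of the design text. The libraries were chosen by their names and labels: of 56 poly-A RNA-seq libraries in the series, 8 belonged to the library series whose names begin with HK and carried the treatments CON, CLF, BTZ or BTZ_CLF. Each subline had 1 library of each treatment, so 4 libraries with BTZ (BTZ and BTZ_CLF) were compared with 4 without (CON and CLF). CON is taken as untreated. The labels do not say what P, VR or CLF stand for, and dose and duration are not given in the sources used here. The question was which genes change with BTZ in both sublines, and where the sublines differ in the size of that change.

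The proteasome is the protease that degrades proteins tagged with ubiquitin. It is built from a 20S core, which holds the catalytic sites, and a 19S regulator, which recognises and unfolds the substrates. Bortezomib binds the catalytic beta 5 subunit, encoded by PSMB5. Unfolded and tagged proteins then accumulate, and cells are known to answer through heat shock factor 1 (HSF1), which drives chaperone genes, through NFE2L1, which drives proteasome genes, through NFE2L2 (NRF2), which drives antioxidant genes, and through the unfolded protein response of the endoplasmic reticulum. Proteasome inhibitors are used as drugs against mantle cell lymphoma and multiple myeloma, both of which arise from the B-cell lineage.

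The libraries held 15.66 to 21.35 M recovered reads each (M for 1000000), so that 3 reads corresponded to 0.141 to 0.192 CPM (reads per M reads). Libraries of 1 subline and 1 BTZ state, which differ in CLF, correlated across genes at 0.977 to 0.988, and libraries of 1 subline and 1 CLF state, which differ in BTZ, at 0.888 to 0.927. The former pairs still differed by 23.9 to 72.1 times the counting noise (chi-square per degree of freedom), so none was counted as a repeat of another. No label says that the libraries came from separate cultures, so the p-values measure the spread that an additive model of subline, CLF and BTZ leaves between these 8 libraries, which may be technical. The column names number the libraries without BTZ 7 to 11 and those with BTZ 36 to 39, so BTZ and the order of these numbers cannot be told apart. The names end in a code, read here as flow cell and lane, that all 4 BTZ libraries and both MINO-VR libraries without BTZ share. MINO-P CON and MINO-P CLF each have another ending, so in MINO-P this code and the absence of BTZ cannot be told apart. Within the 4 MINO-VR libraries alone, which share 1 ending, 1965 genes were called higher and 3521 lower with BTZ (15.4% and 27.7% of 12726). Higher there were 14 of 14 genes of the 20S core, 17 of 18 of the 19S regulator, 8 of 11 of the HSP70 and HSP110 list and 18 of 22 NRF2 targets, and 27 of 30 mitosis genes were lower. This fit leaves 1 residual degree of freedom and was chosen after seeing the data. The lists given for it are only some of the 27 lists. Mitochondrial transcripts held 2.17% to 3.37% of the libraries without BTZ and 3.23% to 5.91% of those with BTZ (exact permutation test, two-sided, p = 0.0571, where the smallest possible p is 0.0286). That test ignored the pairing by subline and CLF. Within MINO-P the share went from 2.17% to 5.73% without CLF and from 3.16% to 3.23% with it. Within MINO-VR it went from 3.37% to 4.4% and from 3.19% to 5.91%. With mitochondrial genes left out of the scaling, 7550 genes were called in place of 7567. Of 10 markers of B cells and mantle cell lymphoma, all were present, and their summed level was 3540 to 4730 CPM without BTZ and 976 to 2470 CPM with it. Of 8 T-cell and NK-cell markers, 3 reached 1 CPM in any library, with sums of 3.68 to 9.54 CPM over all libraries. Among 6 myeloid markers in the table, 3 reached 1 CPM, and the sum of 5.81 to 114 CPM without BTZ and 27.4 to 119 CPM with BTZ was mostly CD68, a lysosomal protein. CD2, CD3D, CD3E and CD14 stayed under 1 CPM in every library. Of 8 epithelial, stromal and endothelial markers, 7 reached 1 CPM, and their sums of 537 to 831 CPM without and 522 to 949 CPM with BTZ were mostly VIM (vimentin), which lymphoid cells also express. Plasma cell markers summed to 1370 to 1770 CPM without and 430 to 731 CPM with BTZ. The part of these markers in the results was not tested.

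Levels below are CPM, given for each subline in the order CON, CLF, BTZ and BTZ_CLF. Differences are log2 fold changes computed after 1 is added to each CPM value, so those of genes with few reads come out too small. A gene is called where limma's Benjamini-Hochberg adjusted p is under 0.05 over all 13397 genes tested. With BTZ, 7567 genes (56.5%) were called, of which 2663 were higher (19.9%) and 4904 lower (36.6%). The median over all genes was -0.21, and a rescaling by size factors moved it to -0.09 and the calls to 3274 higher and 4164 lower. Groups did not overlap for 5387 genes (40.2%), 2012 with all BTZ libraries higher (15%) and 3375 with all lower (25.2%). The counts of each gene list below are to be read against these shares.

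Heat shock chaperones held the largest rises. HSPA6, a strictly stress-inducible HSP70 (chr1:161524540-161526895 in the hg38 coordinates of the deposited table), measured 0.0722, 0.206, 616 and 842 CPM in MINO-P and 0.375, 18.8, 72.3 and 542 CPM in MINO-VR. Cells without BTZ were thus at or near 0, apart from MINO-VR with CLF, and all 4 BTZ libraries lay above all others. Its log2 fold change was 7.28 ± 0.90 (SE, adjusted p = 0.000363), the largest rise among the named genes. HSPA1B and HSPA1A, the inducible HSP70 pair on chromosome 6, are near-identical copies whose reads can be split between them in counting. HSPA1B measured 11.8, 13.7, 5570.3 and 7195 CPM in MINO-P and 32.8, 268, 1698 and 5959 CPM in MINO-VR, which gave a fold change on the log2 scale of 6.95 ± 0.77 (SE, adjusted p = 0.000228). For HSPA1A the values were 1.33, 0.237, 40 and 44.7 CPM in MINO-P and 0.395, 3.94, 88.2 and 298 CPM in MINO-VR, a difference of 5.32 ± 0.48 (SE, adjusted p = 8.91e-05). In MINO-VR, CLF alone already went with higher values of the 3 genes than CON, and the BTZ library without CLF held less of each than BTZ_CLF.

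**Figure D1:**
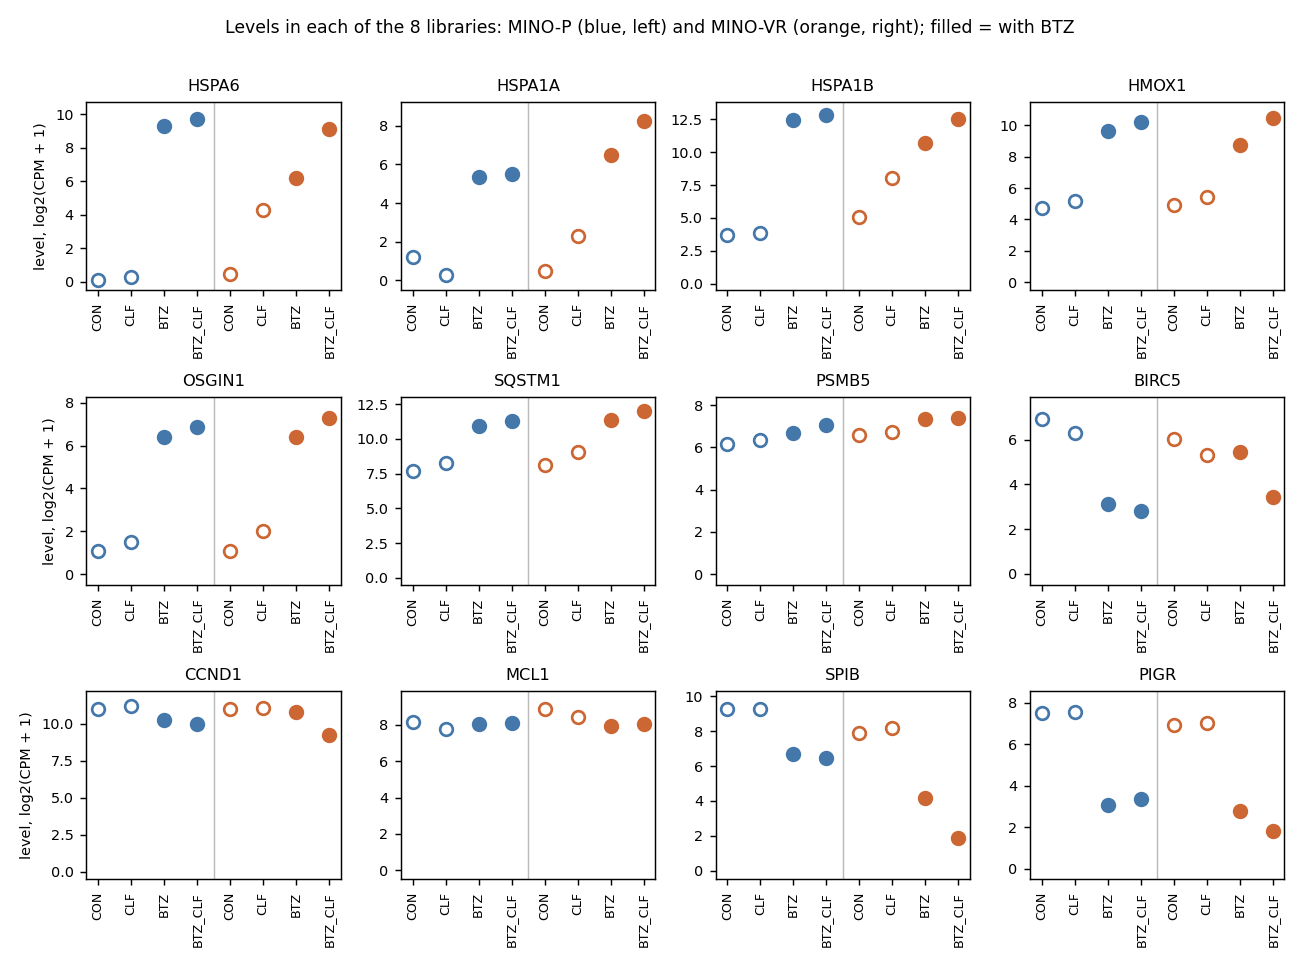
Level (log2(CPM + 1), vertical axis of each panel) of 12 genes in each of the 8 libraries, MINO-P on the left of each panel and MINO-VR on the right, filled points with BTZ. HSPA6, HSPA1A, HSPA1B, HMOX1, OSGIN1 and SQSTM1 lie higher in every library with BTZ than in any without, SPIB and PIGR lie lower, and the groups overlap for PSMB5, BIRC5 and MCL1.

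Of 12 genes of the HSP70 and HSP110 list, 8 rose and 0 fell, against 19.9% and 36.6% of all genes, and the list's median was 1.16. HSPA8, the constitutive cytosolic HSP70, measured 623, 684, 4882 and 4977 CPM in MINO-P and 436, 894, 4286 and 4486 CPM in MINO-VR, a difference of 2.86 ± 0.19 (SE, adjusted p = 3.16e-05). HSPH1, an HSP110 nucleotide exchange factor, was at 3.78, and the not-called members were HSPA1L, HSPA2, HSPA4L and HSPA13. Among cochaperones (HSP40, BAG and small heat shock proteins), 13 of 17 tested rose and 0 fell. DNAJB1, the main HSP40 partner of HSP70, measured 27.7, 32.4, 961 and 1159 CPM in MINO-P and 45.2, 157, 442 and 1269 CPM in MINO-VR, a difference of 4.11 ± 0.43 (SE, adjusted p = 0.000176). BAG3, which hands HSP70 clients to autophagy, rose by 3.95 and the small heat shock protein HSPB1 by 2.45. In the list of HSP90, its cochaperones and the chaperonin subunits, 18 of 21 rose and 0 fell. HSP90AA1, the inducible cytosolic HSP90, measured 1278, 1044, 18835 and 19850.0 CPM in MINO-P and 858, 1137, 10328 and 16948 CPM in MINO-VR, a difference of 3.90 ± 0.21 (SE, adjusted p = 1.62e-05). For HSPA8, DNAJB1 and HSP90AA1, all 4 BTZ libraries exceeded all others. HSF1 itself measured 156, 159, 170.2 and 157 CPM in MINO-P and 171, 140.3, 148 and 176 CPM in MINO-VR, and its log2 fold change was 0.06 ± 0.11 (SE, adjusted p = 0.684). Restricted to the 4 libraries without CLF, 6 of the HSP70 and HSP110 list, 7 of the cochaperones and 6 of the HSP90 list were called higher. That fit leaves 1 residual degree of freedom, and 477 of all 12819 genes were higher in it.

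The heat shock element, the binding motif of heat shock factors, was searched as GAANNTTCNNGAA on both strands in the RefSeq promoters (GRCh38.p14, from 250 bases before to 50 after the start). It was found in 2 of 11 matched promoters of the HSP70 and HSP110 list, in 2 of 16 of the cochaperones and in 1 of 18 of the HSP90 list, and in 0.312% of the 10260 matched promoters of all genes tested. The genes with a match were all called higher, as were most genes of their lists. In DNAJA1 the match starts at base 4 of the transcript, so no upstream stretch is given. HSPA8 holds another match at base -230, outside the stretch shown. Upstream stretches of 4 of these promoters follow, 5′ to 3′ on the strand of the gene, with the motif in capitals:
HSPA6 (chr1:161524436-161524508, plus strand): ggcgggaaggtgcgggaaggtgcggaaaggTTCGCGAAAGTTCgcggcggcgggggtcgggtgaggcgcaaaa
HSPA8 (chr11:123062149-123062251, minus strand): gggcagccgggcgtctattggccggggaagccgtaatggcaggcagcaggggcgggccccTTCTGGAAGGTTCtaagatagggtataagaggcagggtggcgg
DNAJB6 (chr7:157336843-157336915, plus strand): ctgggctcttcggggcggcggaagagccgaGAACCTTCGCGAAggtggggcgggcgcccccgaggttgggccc
CHORDC1 (chr11:90223057-90223139, minus strand): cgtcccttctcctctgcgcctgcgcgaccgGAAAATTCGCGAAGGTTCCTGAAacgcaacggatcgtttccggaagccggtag
CHORDC1, an HSP90 cochaperone, holds 3 overlapping copies and rose by 2.81, and DNAJB6, an HSP40, rose by 2.01. A match describes the letters and not a bound site, and other promoters of the lists hold shorter or imperfect forms that this search does not count.

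Genes of the proteasome rose together, and those of the immunoproteasome fell. All 14 genes of the 20S core and all 18 of the 19S regulator were called higher, against 19.9% of all genes, with medians of 0.98 and 1.42. PSMB5, the target of bortezomib, measured 70.2, 79.9, 102 and 133 CPM in MINO-P and 93.4, 105, 159 and 167 CPM in MINO-VR, a difference of 0.67 ± 0.10 (SE, adjusted p = 0.000723). Each subline rose, but the MINO-P BTZ library lay just under the MINO-VR CLF library, so the groups overlapped. PSMB7, the beta 2 catalytic subunit, measured 70.3, 70.6, 159 and 203 CPM in MINO-P and 94.9, 102, 357 and 409 CPM in MINO-VR, a difference of 1.64 ± 0.14 (SE, adjusted p = 7.63e-05), the largest of the core. The smallest was PSMA7, an alpha-ring subunit, at 0.52 ± 0.13 (SE, adjusted p = 0.0105). In the regulator, differences ran from 0.50 for PSMD7 to 2.10 for PSMD1, the scaffold subunit, whose levels were 121, 103, 451 and 446 CPM in MINO-P and 84.7, 105, 456 and 423 CPM in MINO-VR. PSMB8 and PSMB9 encode catalytic subunits that replace the standard ones in the immunoproteasome, which is typical of lymphoid cells and is induced by interferon. PSMB8 measured 101, 86.5, 21.7 and 25.0 CPM in MINO-P and 178, 131, 50.3 and 37.8 CPM in MINO-VR, a difference of -1.87 ± 0.13 (SE, adjusted p = 3.61e-05). PSMB9 changed by -1.94 ± 0.15 (SE, adjusted p = 5.77e-05), and the 11S activator genes PSME1 and PSME2 by -1.14 and -1.07. For PSMB7, PSMD1, PSMB8 and PSMB9 the groups did not overlap.

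Of the 12 genes in the list of immunoproteasome and other activators and assembly factors, 8 fell and 2 rose, against 36.6% and 19.9% of all genes. The pair that rose was POMP, the chaperone of core assembly, at 1.29, and PSME4, the PA200 activator, at 1.40. The fallers besides those above were PSMB10 and the assembly chaperones PSMG1, PSMG3 and PSMG4. Each count of the core and regulator stood at 14 and 18 when any single library was left out. With the 4 libraries without CLF alone, 5 of the core and 13 of the regulator passed, and PSMB5 did not. There 477 of all 12819 genes were higher. No gene of the core was called for a difference in BTZ effect between sublines, and 1 was, higher in MINO-VR, with mitochondrial genes left out, with array weights or without MINO-VR BTZ_CLF. For PSMB7 that difference was 0.60 ± 0.17 (SE, adjusted p = 0.0678). NFE2L1, whose protein is the known activator of proteasome genes, measured 406, 389, 557 and 544 CPM in MINO-P and 513, 523, 513 and 509 CPM in MINO-VR, a difference of 0.23 ± 0.13 (SE, adjusted p = 0.156).

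**Figure D2:**
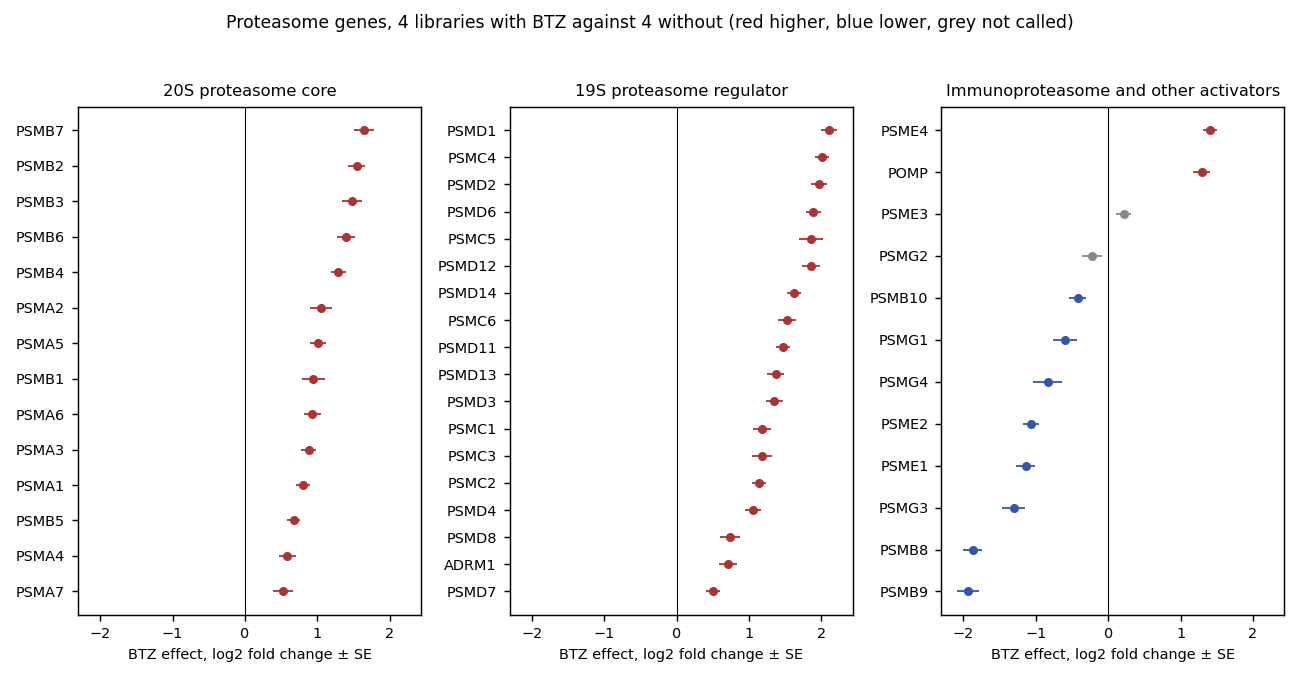
BTZ effect (log2 fold change ± SE, horizontal axis) of each proteasome gene, 4 libraries with BTZ against 4 without, in 3 panels by role. All genes of the core and the regulator lie right of 0, and PSMB8 and PSMB9 lie furthest left, at -1.87 and -1.94.

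The ubiquitin side of the pathway rose at several steps. Of 26 genes, 16 rose and 4 fell, with a median of 0.42. SQSTM1 encodes p62, which carries ubiquitinated cargo to autophagosomes and holds NRF2's repressor KEAP1. Its levels were 205, 306, 1957 and 2434 CPM in MINO-P and 272, 519, 2569 and 4198 CPM in MINO-VR, and its difference was 3.12 ± 0.13 (SE, adjusted p = 1.00e-05). The segregase VCP, which extracts tagged proteins, rose by 1.30, with its cofactors UFD1 and NPLOC4 at 2.05 and 2.05. ZFAND2A, a stress-induced proteasome partner also known as AIRAP, measured 19.7, 21.8, 182 and 232 CPM in MINO-P and 30.8, 30.98, 103 and 214 CPM in MINO-VR, a difference of 2.74 ± 0.24 (SE, adjusted p = 8.50e-05). Those that fell were RPS27A, a ubiquitin and ribosomal protein fusion, DDI2, the protease that processes NFE2L1, UBQLN4 and HERPUD1.

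NRF2 target genes rose almost throughout the list. Of 22 tested, 19 rose and 0 fell, with a median of 1.26. OSGIN1, an oxidative stress response gene, measured 1.12, 1.85, 84.6 and 114 CPM in MINO-P and 1.08, 3.04, 83.05 and 156 CPM in MINO-VR, a difference of 5.32 ± 0.16 (SE, adjusted p = 4.22e-06), which had the lowest adjusted p of all genes. HMOX1, the heme-degrading heme oxygenase, measured 25.8, 35.6, 776 and 1190.5 CPM in MINO-P and 29.04, 42.5, 421 and 1419 CPM in MINO-VR, a difference of 4.68 ± 0.22 (SE, adjusted p = 1.10e-05). SRXN1 (sulfiredoxin) rose by 3.36, GCLM, the modifier subunit of glutathione synthesis, by 2.52, and NQO1 by 2.42. GPX3, a secreted glutathione peroxidase that is not on the list, was at 0.811, 0.638, 41.4 and 58.8 CPM in MINO-P and 0.468, 0.419, 47.6 and 89.3 CPM in MINO-VR, a difference of 5.19 ± 0.24 (SE, adjusted p = 1.04e-05). In each of OSGIN1, HMOX1, GCLM and GPX3 the 4 BTZ libraries lay above the other 4. FTH1, TKT and ABCC1 were not called.

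The letters TGACNNNGC, the core of the antioxidant response element, occurred in 15.3% of the promoters of all genes tested, in 5 of 16 of the NRF2 list (31.2%), in 5 of 17 of the 19S regulator (29.4%) and in 1 of 10 of the 20S core (10%). It overlaps motifs of the AP-1 family. Upstream stretches of a gene from each of the first pair of lists show how the same letters sit near genes of both groups:
GCLM (chr1:93909431-93909494, minus strand): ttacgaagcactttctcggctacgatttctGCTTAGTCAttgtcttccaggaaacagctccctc
PSMD12 (chr17:67366704-67366772, minus strand): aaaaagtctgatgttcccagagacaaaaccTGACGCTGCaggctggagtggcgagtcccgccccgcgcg
In GCLM the match is on the opposite strand, and PSMD12, a subunit of the regulator's lid, rose by 1.85.

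Autophagy and lysosome genes were higher in 18 of 24 and lower in 1. GABARAPL1, an ATG8-family protein of autophagosomes, measured 4.37, 9.51, 192 and 242 CPM in MINO-P and 9.25, 14.6, 178 and 289 CPM in MINO-VR, a difference of 4.51 ± 0.17 (SE, adjusted p = 1.00e-05). NPC1, the lysosomal cholesterol exporter, rose by 2.28 and CTSD, a lysosomal protease, by 1.77. The exception was TFEB, a transcription factor of lysosomal genes, at -1.33 ± 0.14 (SE, adjusted p = 0.000197). CTSD was also high in MINO-VR with CLF and without BTZ, at 1027 CPM against 291 CPM in CON.

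Several of the largest rises fell outside these groups. CXCL8, a neutrophil chemokine, measured 0.811, 0.319, 83.8 and 102 CPM in MINO-P and 0.328, 0.628, 295 and 443 CPM in MINO-VR, a difference of 6.93 ± 0.40 (SE, adjusted p = 1.99e-05). MAP1A, a microtubule-associated protein best known from neurons, measured 33.7, 49.03, 1354 and 1149.9 CPM in MINO-P and 8.38, 6.8, 779.9 and 671 CPM in MINO-VR, a difference of 5.65 ± 0.30 (SE, adjusted p = 1.54e-05). FLNC, a muscle filamin and a client of BAG3, measured 1.56, 2.11, 291 and 238 CPM in MINO-P and 5.06, 7.74, 43.5 and 113 CPM in MINO-VR, a difference of 4.92 ± 0.61 (SE, adjusted p = 0.000382). For each of the 3 genes, no BTZ library came down to the range of the others. TRPV3 (a cation channel), B4GALNT1 (a ganglioside synthase) and L1CAM (an adhesion molecule) rose by 4.72, 4.63 and 4.61.

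The largest falls included genes of the B-cell lineage. IGLC6, an immunoglobulin lambda constant segment, measured 215, 183, 3.54 and 2.28 CPM in MINO-P and 103, 40.7, 1.53 and 0.649 CPM in MINO-VR, a difference of -5.35 ± 0.22 (SE, adjusted p = 1.00e-05), and IGLC7 fell by 3.98. Segments of this family are close copies, so reads may be split among them. PIGR, the receptor that carries polymeric immunoglobulin across epithelia, measured 179, 187, 7.32 and 9.17 CPM in MINO-P and 122, 127, 5.95 and 2.6 CPM in MINO-VR, a difference of -4.48 ± 0.21 (SE, adjusted p = 1.04e-05). SPIB, an ETS-family factor of B cells, measured 625, 617, 104 and 86.6 CPM in MINO-P and 233, 294, 16.8 and 2.6 CPM in MINO-VR, a difference of -3.87 ± 0.55 (SE, adjusted p = 0.0007). NIBAN3, known from B cells, measured 518, 465, 38.6 and 19.1 CPM in MINO-P and 449, 233, 48.5 and 9.54 CPM in MINO-VR. All 4 BTZ libraries were below all others for each of these genes. In these bulk libraries, fewer cells with a transcript and less transcript per cell cannot be told apart. IFITM1, an interferon-induced membrane protein, measured 284, 321, 18.2 and 17.1 CPM in MINO-P and 1879, 1156, 91.7 and 46.4 CPM in MINO-VR, a difference of -4.25 ± 0.20 (SE, adjusted p = 1.04e-05). The other named falls were OLFML2A, at 0 in both MINO-P libraries with BTZ, CCDC28B, CRIP2, the noncoding LINC02363, CUX2 and USP18, the interferon-induced ISG15 protease.

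Genes of B-cell identity fell broadly. Of 18 tested genes of B-cell receptor signalling, 16 fell and 1 rose, of 18 B-cell and plasma cell transcription factors 11 fell and 1 rose, and of 13 MHC class II genes all 13 fell, against 36.6% of all genes falling. PAX5, the factor that holds B-cell identity, measured 402, 232, 58.8 and 43.9 CPM in MINO-P and 347, 169.6, 42.7 and 21.03 CPM in MINO-VR, a difference of -2.77 ± 0.14 (SE, adjusted p = 1.31e-05). CD79A, a signalling chain of the B-cell receptor, was at 386, 378, 147 and 180.1 CPM in MINO-P and 403, 266, 55.6 and 25.02 CPM in MINO-VR, a difference of -2.16 ± 0.38 (SE, adjusted p = 0.00203). CIITA, the master activator of MHC class II, measured 241, 281, 51.8 and 34.5 CPM in MINO-P and 300.5, 365, 43.3 and 37.97 CPM in MINO-VR, a difference of -2.80 ± 0.16 (SE, adjusted p = 2.05e-05), and HLA-DRA, the alpha chain of HLA-DR, fell by 1.81. PAX5, CD79A, CIITA and HLA-DRA all separated the groups without overlap. The 2 that rose were MALT1, of the receptor's signalling complex, at 0.76, and BACH2, a repressor of plasma cell differentiation, at 1.54. 

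Genes of cell division fell, least in MINO-VR without CLF. All 30 mitosis genes and 27 of 30 DNA replication genes were called lower and 0 higher, with medians of -2.09 and -1.69. By pair, the replication median was -2.48 in MINO-P without CLF and -2.2 with it. In MINO-VR it was -0.34 without CLF and -1.72 with it. Groups did not overlap for 13 mitosis and 19 replication genes, against 40.2% of all genes. TOP2A, the topoisomerase of dividing cells, measured 529, 259, 17.4 and 12.3 CPM in MINO-P and 355, 203, 178 and 27.9 CPM in MINO-VR, a difference of -3.24 ± 0.55 (SE, adjusted p = 0.00168). TYMS (thymidylate synthase) measured 249, 175, 13.9 and 10.8 CPM in MINO-P and 120.0, 124, 60.3 and 13.1 CPM in MINO-VR, a difference of -3.02 ± 0.45 (SE, adjusted p = 0.00087). Among the libraries with BTZ, MINO-VR without CLF held the most of both. In the 4 libraries without CLF alone, 2 mitosis and 3 replication genes were called lower. There 962 of all 12819 genes were lower, with 1 residual degree of freedom. CCND1, the cyclin whose translocation defines mantle cell lymphoma, measured 2064, 2349.7, 1229 and 1029 CPM in MINO-P and 2033, 2163, 1752 and 593 CPM in MINO-VR, a difference of -1.0 ± 0.27 (SE, adjusted p = 0.0132). SOX11, a diagnostic factor of this lymphoma, fell by 1.66 and CCND2 by 2.32. Of 14 tested genes in the list of cyclin D1 and G1 regulators, 9 fell and 1 rose (E2F3, a factor of S-phase entry). Without the CLF libraries, CCND1 stood at an adjusted p of 0.464.

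The CHR motif, a site of the DREAM complex of cell-cycle genes searched as TTTGAA on both strands, was found in 17 of 26 matched promoters of the mitosis list (65.4%), in 1 of 26 of the replication list (3.85%) and in 9.81% of all genes tested. The replication gene with the motif, RRM1, was not called, at 0.06. All 30 mitosis genes were called lower, with or without the motif, which is shown upstream of 4 of them:
PLK1 (chr16:23678830-23678888, plus strand): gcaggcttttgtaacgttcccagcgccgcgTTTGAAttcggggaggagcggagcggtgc
CCNB2 (chr15:59105087-59105145, plus strand): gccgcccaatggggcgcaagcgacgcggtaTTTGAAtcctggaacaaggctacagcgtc
CDC20 (chr1:43358773-43358951, plus strand): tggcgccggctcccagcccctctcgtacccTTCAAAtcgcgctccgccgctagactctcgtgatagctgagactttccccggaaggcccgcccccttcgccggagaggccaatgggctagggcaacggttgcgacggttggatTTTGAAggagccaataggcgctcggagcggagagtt
TOP2A (chr17:40418012-40418120, minus strand): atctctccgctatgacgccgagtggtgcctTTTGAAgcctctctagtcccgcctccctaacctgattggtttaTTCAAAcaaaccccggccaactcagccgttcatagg
PLK1 (a mitotic kinase) changed by -2.68, CCNB2 (cyclin B2) by -2.58 and CDC20 (an activator of the anaphase-promoting complex) by -2.71. CDC20 and TOP2A hold the letters on both strands.

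The apoptosis genes named in the study's title were measured in every library. BIRC5 (survivin), which serves both cell division and the block of apoptosis, measured 121, 77.8, 7.67 and 6.04 CPM in MINO-P and 64.1, 38.5, 43.5 and 9.79 CPM in MINO-VR, a difference of -2.43 ± 0.49 (SE, adjusted p = 0.0038). In MINO-VR, the BTZ library without CLF was near its controls, and in the 4 libraries without CLF alone BIRC5 was not called. MCL1, an anti-apoptotic BCL2 protein that the proteasome turns over, measured 279, 215, 260.3 and 273 CPM in MINO-P and 458, 341, 240.2 and 264 CPM in MINO-VR, a difference of -0.26 ± 0.18 (SE, adjusted p = 0.244), with overlapping groups. PMAIP1, the BH3-only protein NOXA that opposes MCL-1, measured 403, 342, 549 and 684 CPM in MINO-P and 436, 379, 350.0 and 371 CPM in MINO-VR, a difference of 0.27 ± 0.20 (SE, adjusted p = 0.26). In the list of 10 anti-apoptotic genes 4 fell (BCL2, BCL2L1, BCL2A1, BIRC5) and 2 rose (BCL2L2, BIRC6), with a median of -0.56. These counts are near the shares of all genes, 36.6% lower and 19.9% higher. BCL2A1, an NF-kB target, fell by 2.46 and BCL2L1, which encodes BCL-XL, by 1.27. Of 11 tested BH3-only, effector and death receptor genes, 5 fell and 1 rose, against 36.6% and 19.9% of all genes. TNFRSF10A, a TRAIL receptor, was the riser, with 28.7, 26.8, 96.9 and 97.1 CPM in MINO-P and 21.5, 26.3, 78.9 and 89.5 CPM in MINO-VR, a difference of 1.77 ± 0.11 (SE, adjusted p = 2.49e-05). The fallers of that list were BBC3, BID, BIK, BMF and BAX.

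NF-kB targets were lower in 17 of 23 and higher in 1, with a median of -1.35, and p53 targets lower in 9 of 16 and higher in 2. LTA (lymphotoxin alpha) measured 15.8, 18.4, 3.31 and 1.25 CPM in MINO-P and 36.96, 37.9, 2.38 and 1.6 CPM in MINO-VR, a difference of -3.12 ± 0.29 (SE, adjusted p = 0.000112). IL10 changed by -3.24, TNFAIP3, a feedback inhibitor of NF-kB, by -1.99 and NFKBIA, which encodes the inhibitor IkB alpha, by -1.35. Of the p53 list, DDB2 fell by 2.55 and CDKN1A, which encodes p21, by 1.10, whereas GADD45A, which other stress pathways also induce, rose by 1.83. Immediate early genes went both ways, 7 of 19 higher and 10 lower. JUN, an AP-1 subunit, measured 26.5, 18.3, 394 and 431 CPM in MINO-P and 18.8, 39.3, 129.8 and 357 CPM in MINO-VR, a difference of 3.55 ± 0.35 (SE, adjusted p = 0.000139), and FOSL1, its partner, rose by 3.55. EGR3, which antigen receptor signals induce, measured 40.4, 26.6, 0.826 and 0.512 CPM in MINO-P and 18.4, 20.8, 2.55 and 0.749 CPM in MINO-VR, a difference of -3.70 ± 0.31 (SE, adjusted p = 6.97e-05). The groups did not overlap for LTA, JUN, FOSL1 and EGR3.

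In the list of ATF4 and the integrated stress response, 4 of 24 rose and 10 fell, near the shares of all genes, and 2 rose without MINO-P BTZ or without MINO-P BTZ_CLF. ATF3 rose by 2.65 and PPP1R15A (GADD34) by 1.51, while PHGDH, of serine synthesis, fell by 1.54. PPP1R15A lost its call without MINO-P BTZ (adjusted p = 0.0576), without MINO-P BTZ_CLF (0.0672) and in the libraries without CLF. ATF4 itself was at 0.15 ± 0.12 (SE, adjusted p = 0.315) and DDIT3 (CHOP) at 0.40 ± 0.17 (SE, adjusted p = 0.079). Sterol and fatty acid synthesis genes fell in 13 of 22, among them SREBF1, a transcription factor of lipid synthesis, at -2.39. Genes of MYC and ribosome biogenesis fell in 12 of 22 and rose in 2, with MYC at -0.95 ± 0.34 (SE, adjusted p = 0.0414). Within MINO-P 14 of this list were called lower and within MINO-VR 6, against 37.5% and 28.6% of all genes. The list's median was 0.12 in the MINO-VR pair without CLF. Its count of 12 was 9 to 16 with single libraries left out, and 0 in the libraries without CLF alone. Of 4 tested genes of the metallothionein and zinc list, MT2A fell by 1.78, and MTF1 and SLC30A1 rose by 0.74 and 0.44. Among 4 tested drug transporters, ABCC4 and SLC35F2 fell and ABCC5 rose by 0.69, and ABCB1 did not pass the filter. Of 19 alternative analyses, 10 lost the call of SLC30A1 and 11 that of ABCC5, each including 6 of the 8 that leave out 1 library.

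**Figure D3:**
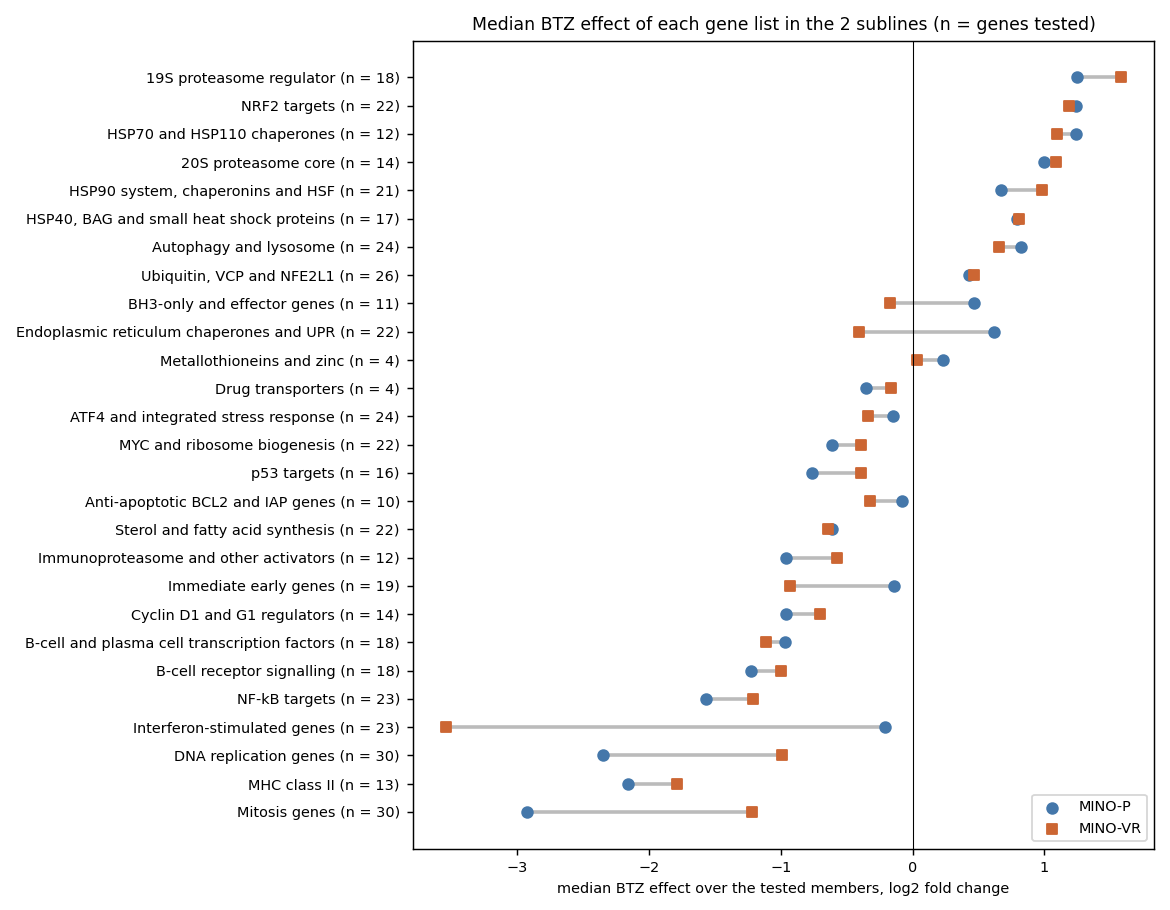
Median BTZ effect (log2 fold change, horizontal axis) of the tested members of each of 27 gene lists, in MINO-P (circles) and MINO-VR (squares). Interferon-stimulated genes stand at -0.21 in MINO-P and -3.54 in MINO-VR, mitosis genes at -2.93 and -1.22, and genes of the endoplasmic reticulum at 0.62 and -0.41.

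The sublines were then compared in the size of their BTZ effect. Within MINO-P 7764 genes were called and within MINO-VR 6139 (58% and 45.8% of those tested). The former count was 4811 without MINO-P CLF, and the latter 3904 without MINO-VR CON and 3561 without MINO-VR CLF. The per-gene effects of the sublines had the same sign for 80% of all genes and correlated across genes with a Pearson r of 0.754, given as a description since genes share libraries. Effects were larger in MINO-P for 61.1% of all genes tested. The share was 59.2% for the genes called higher over both sublines and 66.9% for those called lower. The median absolute difference within a pair of 1 subline and 1 CLF state was 0.622 in MINO-P without CLF, 0.62 in MINO-P with CLF, 0.436 in MINO-VR without CLF and 0.549 in MINO-VR with CLF. MINO-VR without CLF thus had the smallest response of the 4 pairs. Since only the MINO-P libraries without BTZ have other name endings, the subline difference in BTZ effect and the endings cannot be told apart.

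The difference of the effects, MINO-VR minus MINO-P, was called for 1004 genes (7.49%), 498 higher in MINO-VR and 506 lower. Of these, 368 were called in MINO-P but not in MINO-VR, 235 in MINO-VR but not in MINO-P, 276 in both in the same direction and 125 in both in opposite directions. The count rests on few residual degrees of freedom and moved with single libraries. It was 83 without MINO-P CON, 165 without MINO-P CLF, 140 without MINO-VR CON, 307 without MINO-VR CLF, 97 without MINO-P BTZ, 444 without MINO-P BTZ_CLF, 733 without MINO-VR BTZ and 2091 without MINO-VR BTZ_CLF. Testing all 20328 genes with any reads left 12 calls. Of 40 named genes with a called difference, 13 held it without each of the 8 libraries in turn: WFDC21P, SPOCK2, PURPL, IFIT1, CMPK2, RSAD2, OASL, USP18, DNAJB9, BMF, ISG15, IFI6 and IRF7. The other 27 lost it without MINO-P BTZ, and most of them without other libraries too. Among all 20328 genes, WFDC21P alone of the 40 stayed under the threshold (adjusted p = 0.0422).

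**Figure D4:**
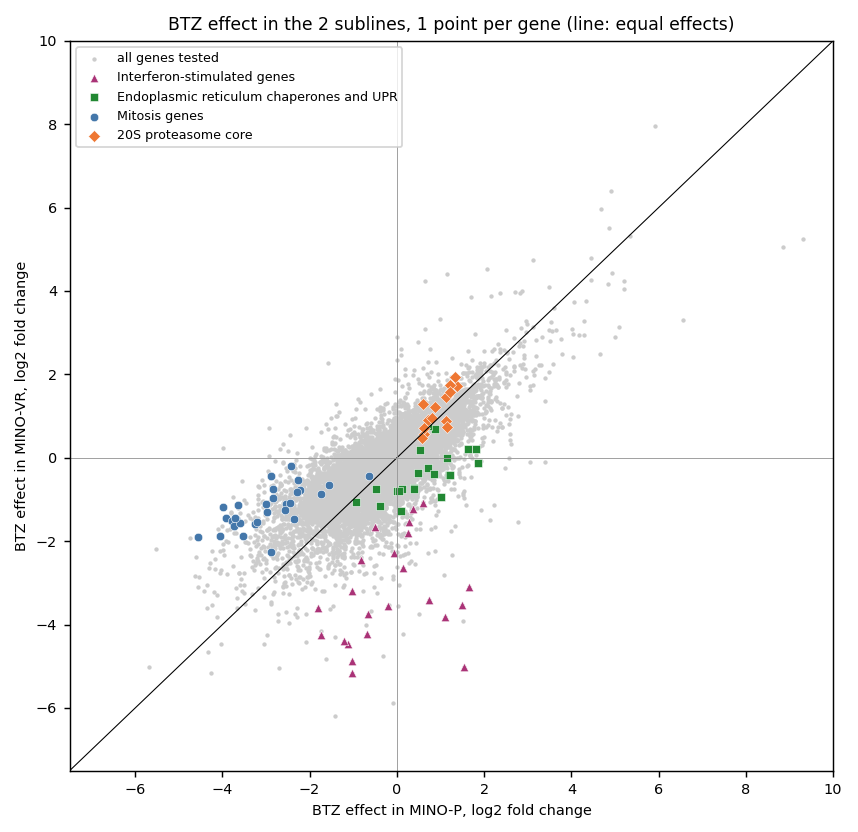
BTZ effect (log2 fold change) in MINO-P (horizontal axis) against MINO-VR (vertical axis), 1 grey point per tested gene, with 4 lists in colour and a line of equal effects. Interferon-stimulated genes lie below the line with median effects of -0.21 and -3.54, mitosis genes lie above it on the left, and the 20S proteasome genes lie near it.

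All 6 genes named for a lower effect in MINO-VR were interferon-stimulated genes. Without BTZ they stood far higher in MINO-VR, and with BTZ they stood near the MINO-P level. IFIT1, an antiviral RNA-binding protein (chr10:89392546-89406488), measured 1.37, 0.702, 4.96 and 4.78 CPM in MINO-P and 224, 88.3, 2.49 and 4.5 CPM in MINO-VR. Its effect was 1.55 in MINO-P and -5.02 in MINO-VR, a difference of -6.56 ± 0.56 (SE, adjusted p = 0.00319). ISG15, a ubiquitin-like modifier, measured 29.9, 26.9, 11.4 and 15.5 CPM in MINO-P and 1204, 494, 19.1 and 21.8 CPM in MINO-VR, a difference in effect of -4.13 ± 0.48 (SE, adjusted p = 0.00637). IRF7, the factor that amplifies interferon, measured 41.3, 40.3, 16.1 and 18.2 CPM in MINO-P and 609, 330.3, 17.01 and 23.98 CPM in MINO-VR, a difference of -3.20 ± 0.38 (SE, adjusted p = 0.00671). For all 3 genes, MINO-VR without BTZ exceeded every other library.

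Of 23 tested interferon-stimulated genes, 22 had a called difference, lower in MINO-VR, against 3.78% of all genes. Within MINO-VR all 23 were called lower with BTZ, against 28.6% of all genes, and within MINO-P 9 were lower and 4 higher, against 37.5% and 20.5%. Without BTZ, 22 were called higher in MINO-VR than in MINO-P, against 10.6% of all genes, with a median difference of 3.43. That comparison shares its libraries with the effects and is given beside them, not as support. The list's median level was 8.38 and 7.73 (log2(CPM + 1)) in MINO-VR CON and CLF, 4.78 and 5.26 in its BTZ libraries, and 4.26 to 4.80 in MINO-P. The other genes named for this direction, CMPK2, RSAD2, IFIT3, OASL and IFIT2, are interferon-stimulated too, with differences of -5.79 to -4.77. Calls on the list numbered 12 without MINO-P CON, 14 without MINO-P CLF, 13 without MINO-VR CON, 7 without MINO-P BTZ and 16 to 23 without any of the other 4, and none of the 6 named genes passed among all 20328 genes (adjusted p = 0.0626 to 0.0849). IFIT2 lost its call without MINO-P CON, MINO-P CLF, MINO-VR CON or MINO-P BTZ, and IFIT3 without MINO-P BTZ.

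The interferon-stimulated response element, searched as GAAANNGAAA on both strands, was present in 11 of 17 matched promoters of the list (64.7%), in 4 of 11 of the immunoproteasome list (36.4%) and in 2.94% of all genes tested. Copies lie close together upstream of 4 genes whose effects differed between the sublines:
IFIT1 (chr10:89392477-89392559, plus strand): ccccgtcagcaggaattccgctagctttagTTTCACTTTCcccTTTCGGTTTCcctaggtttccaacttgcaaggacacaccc
IFIT3 (chr10:89327811-89327914, plus strand): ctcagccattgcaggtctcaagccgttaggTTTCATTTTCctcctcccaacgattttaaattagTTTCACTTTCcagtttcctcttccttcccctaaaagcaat
ISG15 (chr1:1013354-1013429, plus strand): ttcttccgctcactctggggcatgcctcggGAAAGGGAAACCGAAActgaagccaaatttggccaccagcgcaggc
IFI6 (chr1:27672246-27672378, minus strand): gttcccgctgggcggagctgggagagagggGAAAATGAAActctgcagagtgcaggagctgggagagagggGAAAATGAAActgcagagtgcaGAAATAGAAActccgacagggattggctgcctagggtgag
IFIT1 and IFIT3 hold the element on the opposite strand, and IFI6, a mitochondrial antiapoptotic protein, holds 3 copies and had a difference in effect of -3.85 ± 0.39 (SE, adjusted p = 0.00419).

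**Figure D5:**
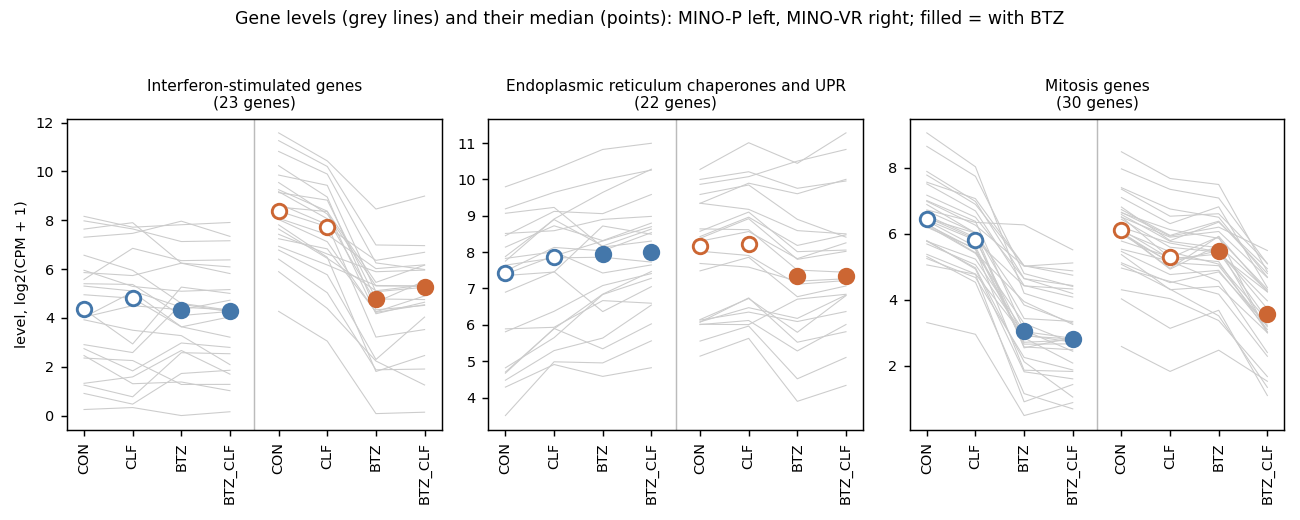
Level (log2(CPM + 1), vertical axis) of each gene of 3 lists (grey lines) and their median (points) in the 8 libraries, MINO-P on the left and MINO-VR on the right of each panel, filled points with BTZ. The interferon median is 8.38 and 7.73 in MINO-VR without BTZ and at most 5.26 in the other libraries, and the mitosis median of MINO-VR BTZ is 5.47 against 3.57 in MINO-VR BTZ_CLF.

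Genes of the endoplasmic reticulum list differed between the sublines in their BTZ effect. Over both sublines 5 of 22 rose and 3 fell, where single left-out libraries gave 2 to 8 and up to 6. Within MINO-P 14 were called higher and 3 lower, against 20.5% and 37.5% of all genes, and within MINO-VR 2 higher and 13 lower, against 17.2% and 28.6%. In the MINO-VR libraries alone 2 were higher and 10 lower. The difference was called for 16, all lower in MINO-VR, against 3.78% of all genes. HSPA5 (BiP), the chief chaperone of the endoplasmic reticulum, measured 215, 480.1, 798 and 1243 CPM in MINO-P and 1237, 2059, 1389 and 2484 CPM in MINO-VR. Its MINO-VR control library already exceeded the MINO-P BTZ library. The effect was 1.63 in MINO-P and 0.22 in MINO-VR, a difference of -1.41 ± 0.23 (SE, adjusted p = 0.0151). DNAJB9, a cochaperone of BiP, measured 25.02, 58.3, 114 and 176 CPM in MINO-P and 69.7, 105, 54.5 and 111 CPM in MINO-VR, a difference of -1.99 ± 0.24 (SE, adjusted p = 0.00659). XBP1, the factor of the IRE1 branch and of plasma cells, measured 226, 257, 171 and 199.6 CPM in MINO-P and 398, 391, 181 and 173 CPM in MINO-VR, a difference of -0.77 ± 0.17 (SE, adjusted p = 0.0362). Without BTZ, 14 of the 22 were called higher in MINO-VR and 0 lower, against 10.6% and 11.7% of all genes. The list's count of differences was 3 without MINO-P CON, 8 without MINO-P CLF, 4 without MINO-VR CON, 9 without MINO-VR CLF, 2 without MINO-P BTZ, 7 without MINO-P BTZ_CLF, and 16 and 15 without either MINO-VR BTZ library. The difference of HSPA5 was not called without MINO-P CON, MINO-VR CON or MINO-P BTZ (adjusted p = 0.0805 to 0.0837), and that of XBP1 without any library but the MINO-VR BTZ pair (0.0904 to 0.168). Over both sublines, the calls of HSPA5 and DNAJC3 were lost without any 1 of the 4 MINO-P libraries, with adjusted p-values of 0.0518 to 0.0765.

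The endoplasmic reticulum stress element, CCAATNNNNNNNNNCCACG on either strand, occurred in 6 of 21 matched promoters of the list (28.6%) and in 0.136% of all genes tested. Of its carriers, HSPA5 (0.92), CANX (0.78) and CALR (0.36) were called higher over both sublines and XBP1 (-0.77) lower. HSP90B1 (0.23) and CRELD2 (-0.58) were not called. The element is shown upstream of 3 chaperone and regulator genes of the list:
HSPA5 (chr9:125241361-125241439, minus strand): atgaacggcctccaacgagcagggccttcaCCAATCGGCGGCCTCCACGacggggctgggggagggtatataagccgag
HSP90B1 (chr12:103930186-103930369, plus strand): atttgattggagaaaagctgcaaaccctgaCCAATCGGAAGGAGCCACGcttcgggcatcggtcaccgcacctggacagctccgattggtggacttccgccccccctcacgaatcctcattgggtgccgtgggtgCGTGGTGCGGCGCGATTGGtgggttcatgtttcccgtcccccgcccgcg
XBP1 (chr22:28800573-28800651, minus strand): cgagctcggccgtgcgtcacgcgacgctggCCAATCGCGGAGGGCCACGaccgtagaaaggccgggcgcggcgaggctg
HSP90B1 (GRP94), the HSP90 of the endoplasmic reticulum, carries it on both strands and had a difference in effect of -0.95 ± 0.19 (SE, adjusted p = 0.0283), which was not called without any 1 of the same 6 libraries as XBP1 (0.072 to 0.145).

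Mitosis and replication genes fell further in MINO-P. The mitosis median was -2.93 in MINO-P and -1.22 in MINO-VR, and the replication median -2.35 and -0.99. The difference was called, higher in MINO-VR, for 15 of 30 mitosis and 12 of 30 replication genes, against 3.72% of all genes. By pair, the mitosis median was -3.16 in MINO-P without CLF, -2.75 in MINO-P with CLF, -0.74 in MINO-VR without CLF and -1.87 in MINO-VR with CLF. TOP2A differed by 2.67 ± 0.59 (SE, adjusted p = 0.0351) and BIRC5 by 2.44 ± 0.50 (SE, adjusted p = 0.0286). The difference of TOP2A was not called without any 1 of the 4 MINO-P libraries, MINO-VR CON or MINO-VR CLF (adjusted p = 0.0527 to 0.143), and that of BIRC5 without the same libraries apart from MINO-P BTZ_CLF (0.0683 to 0.116). Without MINO-VR BTZ, 14 mitosis genes had a called difference at a median of 1.19, and without MINO-VR BTZ_CLF 29 had one at 2.49. The count was 1 without MINO-P CON, MINO-P CLF, MINO-VR CON or MINO-P BTZ, 5 without MINO-VR CLF and 11 without MINO-P BTZ_CLF. For replication genes it was 0 to 8 without any library other than MINO-VR BTZ_CLF, which gave 28.

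Other named differences were spread over several roles. CCL22, a chemokine, measured 64.8, 31.03, 2.48 and 1.42 CPM in MINO-P and 5.15, 12.6, 12.5 and 7.49 CPM in MINO-VR. Its effect was -3.98 in MINO-P and 0.23 in MINO-VR, a difference of 4.21 ± 0.63 (SE, adjusted p = 0.0131). SPP1 (osteopontin), a secreted phosphoprotein, measured 2.31, 4.02, 4.19 and 6.78 CPM in MINO-P and 4.92, 34.9, 259 and 288 CPM in MINO-VR, a difference of 3.59 ± 0.69 (SE, adjusted p = 0.0255). WFDC21P, a noncoding transcript, measured 9.17, 8.74, 2.24 and 2.44 CPM in MINO-P and 5.77, 5.65, 29.7 and 32.8 CPM in MINO-VR, falling with BTZ in MINO-P and rising in MINO-VR. SPOCK2 (a matrix proteoglycan), PURPL (a p53-regulated noncoding RNA) and IGHG4 (an immunoglobulin heavy chain segment with close copies) differed by 3.65, 3.0 and 2.99. CCL22 lost its call without MINO-P CON or MINO-P BTZ, SPP1 without any of the 4 MINO-P libraries or with a spread not tied to the level, and IGHG4 without MINO-P BTZ. BIRC3 (cIAP2), an NF-kB target that blocks apoptosis, measured 100.3, 30.8, 11.2 and 10.02 CPM in MINO-P and 84.9, 69.8, 92.3 and 75.8 CPM in MINO-VR, a difference of 2.41 ± 0.46 (SE, adjusted p = 0.0254). BMF, a BH3-only gene, differed by 1.86 ± 0.19 (SE, adjusted p = 0.00419). HSPA1B differed by -3.79 ± 0.80 (SE, adjusted p = 0.0306), and for HSPA6 the difference of -4.05 ± 1.10 (SE, adjusted p = 0.059) was not called. HSPA1A, the near-identical copy of HSPA1B, went the other way at 1.29, which was not called (adjusted p = 0.349). BIRC3 lost its call without MINO-VR CON, MINO-VR CLF, MINO-P BTZ or MINO-P BTZ_CLF (adjusted p = 0.0513 to 0.111), and HSPA1B without any library but MINO-VR CON and MINO-VR BTZ_CLF (0.052 to 0.13).

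A difference of the BTZ effect with CLF was not detectable at this number of libraries. The difference of the effect with and without CLF was called for 0 genes by limma, with 237 at an unadjusted p under 0.05. The genes with the smallest p were SNHG1, a snoRNA host gene, at 1.04 with an adjusted p of 1, and TALAM1, the antisense partner of MALAT1, at -2.40 with an adjusted p of 1. Strand use in counting is not given in the sources used here, so reads of TALAM1 and MALAT1 cannot be told apart. This test asks for a CLF difference shared by the sublines, and each state of each subline had 1 library.

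The response was set beside that of 2 other mantle cell lymphoma lines, JEKO-1 and Z138, from the other library series. In Z138, with 1 BTZ library against 2 of CON and 2 of CLF, 65.3% of the genes called higher in MINO and 85.3% of those called lower had the same sign, where 31.6% of all genes were positive. In JEKO-1 these shares were 12.5% and 96.3%, where 9.72% of all genes were positive on the deposited scale. The difference of effects, Z138 minus MINO, was called for 226 of 14999 genes (1.51%), from a fit of 21 libraries with CON, CLF, BTZ or BTZ_CLF. Median effects in Z138 were 1.1 for the 20S core, 1.5 for NRF2 targets, -3.42 for mitosis genes and -1.49 for interferon-stimulated genes. For JEKO-1, 6018 genes (40.1%) were called against MINO, 5639 of them lower. Mitochondrial transcripts held 65.5% to 80.5% of 4 of its 5 libraries with BTZ or BTZ_CLF and 9.92% of the fifth, BTZ replicate 3, without which 10302 genes were called against JEKO-1 and 1345 against Z138. The Z138 count was 140 to 145 without MINO-P CLF, MINO-P BTZ or MINO-VR CON. With mitochondrial genes left out the JEKO-1 count was 483, of which 328 were higher and 155 lower, and with size factors 499, of which 402 were higher and 97 lower. The balance of higher against lower calls thus turned under both scalings, with the median difference at -1.18 as deposited, -0.04 without mitochondrial genes and 0.10 with size factors. For Z138 it was 137 higher and 89 lower as deposited, 58 and 93 without mitochondrial genes, and 82 and 53 with size factors. On the scale without mitochondrial genes the JEKO-1 medians were 0.86 for the HSP70 and HSP110 list, 0.02 for the 20S core, 0.29 for NRF2 targets and -2.65 for mitosis genes, beside 1.19, 1.0, 1.29 and -2.07 in MINO. There JEKO-1 minus MINO was called for 1 gene of the HSP70 and HSP110 list, which was lower, and for 0 of the 20S core, NRF2 and mitosis lists. Under size factors the JEKO-1 medians were 1.05, 0.21, 0.47 and -2.44, beside 1.19, 1.01, 1.29 and -2.04 in MINO. Library series and line cannot be told apart in these comparisons.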

How the data were processed

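RNA was isolated with QIAshredder and RNeasy and made into poly-A TruSeq libraries, per the labels' protocols. The authors deposited 1 table of log2 values, log2(CPM + 1), for 21595 genes with a symbol, and the submitters' processing notes name Partek and the build hg38. The aligner, the counter and its strand setting are not given in the sources used here. Low values were whole reads in 80.5% to 82.1% of cases (tolerance 0.05), too few for a count test, so the deposited log2 values were tested. Genes with at least 1 CPM in 2 of the 8 libraries entered limma 3.58.1 (R 4.3.3, trend of the spread with level, Benjamini-Hochberg adjustment) with terms for subline, CLF and BTZ (4 residual degrees of freedom), and with a subline by BTZ or a CLF by BTZ term (3 residual degrees of freedom). The procedure was tested on simulated data.

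The members and the 27 gene lists were chosen with earlier results of these data known, so they are no independent evidence. Named genes are the 12 largest rises and 12 largest falls with the same direction in all 4 pairs and a mean of at least 5 CPM, the 6 largest subline differences in each direction, up to 4 of the largest changes of each list, and PSMB5, MCL1, BIRC5, CCND1, NFE2L1, HSF1, XBP1 and PMAIP1. Further list members are named to complete a count or to show a sequence, after their values were seen. Some genes that meet these rules are not reported here. Promoter sequences are RefSeq's (GRCh38.p14). Alternatives covered scaling, pseudocount, filter, weights, the trend, the block, the CLF libraries and each library left out.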

Additional observations from a re-analysis of the deposited data

Results flagged for a closer look

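One value of 72 groups of 4 libraries tested stood apart from the rest of its group. HSPA6 measured 4.31 (log2(CPM + 1)) in MINO-VR with CLF and without BTZ, and the gap to the next library took 0.914 of the group's range, above Dixon's critical value at the 95% level. Chance gives such a gap in about 1 of 20 groups. HSPA1A and HSPA1B were higher in the same library than in the other 3 without BTZ.

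The BTZ effect differed between MINO-VR and MINO-P by limma's interaction test for 1004 genes, and for 39 of the genes named by rule. Values are MINO-VR minus MINO-P on the log2 scale. Interferon-stimulated genes were IFIT1 (-6.56), CMPK2 (-5.79), RSAD2 (-5.42), IFIT3 (-5.03), OASL (-4.93), IFIT2 (-4.77), USP18 (-4.77), ISG15 (-4.13), IFI6 (-3.85), IRF7 (-3.20) and OAS2 (-2.50). Chaperone and stress genes were HSPA1B (-3.79), BAG3 (-2.10), DNAJB4 (-1.31), MT2A (-1.85), PPP1R15A (-2.16), DNAJB9 (-1.99), DNAJC3 (-1.60), HSPA5 (-1.41), XBP1 (-0.77) and MAP1LC3B (-1.30). Apoptosis genes were BIRC5 (2.44), BIRC3 (2.41), BMF (1.86), BID (1.05) and PMAIP1 (-0.89), and genes of p53 and the cell cycle were DDB2 (1.42) and TOP2A (2.67). B-cell genes were CD22 (1.65) and CD79A (-1.87). The remaining genes were CCL22 (4.21), WFDC21P (3.84), SPOCK2 (3.65), SPP1 (3.59), PURPL (3.0), IGHG4 (2.99), CXCL8 (2.03), MAP1A (1.5) and FLNC (-3.26). The genes that held their call without each library in turn are given in the results above.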

How the results depend on the processing

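No named gene with a call changed direction under any alternative. The count of BTZ-responsive genes in MINO was 7567, and 1439 in the libraries without CLF alone and 4773 in those with CLF alone, each with 1 residual degree of freedom. It was 6905 with each pair of 1 subline and 1 CLF state as a replicate block, which ended the calls of SLC30A1 and ABCC5 and of no other named gene. With each library left out in turn, the counts were 5996 to 7702 in MINO, 4811 to 8195 in MINO-P, 3561 to 6181 in MINO-VR, 83 to 2091 for MINO-VR minus MINO-P and 0 for the CLF difference. The subline difference was 12 with no filter and 526 with no trend of the spread, which ended the calls of 39 and 17 of 40 named genes. The cause was not tested. It could not be fitted in the libraries with or without CLF alone, which leave no residual degrees of freedom. JEKO-1 minus MINO moved from 6018 to 483 without mitochondrial genes and to 499 with size factors, where most calls were higher, not lower. Z138 minus MINO moved from 226 to 135 with size factors, and most calls were lower, not higher, without mitochondrial genes. Left-out libraries, chosen after seeing the data, gave 4698 to 10302 and 140 to 1345, and the only Z138 BTZ library could not be left out. With 1 library per state, precision rests on the additive model, and genes under 3 reads (0.141 to 0.192 CPM) are not told from 0.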

Other observations

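The values of some marker genes, picked after they were seen, belong to no comparison above. LYZ (lysozyme), a myeloid gene, measured 0.187, 0, 0.118 and 0.228 CPM in MINO-P and 0.328, 0.471, 8.79 and 6.49 CPM in MINO-VR. JCHAIN, which joins polymeric immunoglobulin, measured 22.5, 7.72, 2.66 and 1.25 CPM in MINO-P and 19.5, 4.97, 21.5 and 4.1 CPM in MINO-VR. SDC1 (syndecan-1, CD138), a plasma cell surface protein, measured 62.7, 84.3, 14.1 and 12.9 CPM in MINO-P and 104, 87.7, 8.56 and 4.4 CPM in MINO-VR, and COL1A1, a collagen of fibroblasts, 16.5, 11.3, 1.36 and 1.08 CPM in MINO-P and 26.3, 14.3, 0.17 and 0.549 CPM in MINO-VR. LYZ was under 1 CPM in all libraries but the pair of MINO-VR with BTZ, while SDC1 and COL1A1 were lower in all 4 libraries with BTZ than in any without. Other members of their marker lists went the other way in MINO-P, PRDM1 with 28.9, 25.7, 59.3 and 46.2 CPM and EPCAM with 9.67, 12.3, 18.8 and 20.8 CPM. Of 7 tested plasma cell markers, 5 were called lower and 0 higher. Of 5 tested epithelial, stromal and endothelial markers, 2 were lower and 1 higher, against 36.6% and 19.9% of all genes.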
